A study of Mus musculus with 6 samples.

Results

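The apelin and adrenomedullin systems are small families of vasoactive peptides and the receptors they bind. The 9 genes described here, Apln, Apela, Aplnr, Adm, Adm2, Calcrl, Ramp1, Ramp2 and Ramp3, were chosen by name from the 54532 genes of the count table, and each name matched 1 gene ID. Messenger RNA was measured by RNA sequencing of whole retina from wild-type (WT) C57BL/6J mice at postnatal day 17, in 3 normal and 3 OIR samples. OIR usually stands for oxygen-induced retinopathy, a mouse model in which exposure of pups to high oxygen and return to room air leave a hypoxic retina with new vessel tufts. No source used here gives the oxygen schedule, and the labels name no other treatment or allele. Whether each sample is a separate animal is not stated, and p-values therefore reflect only how far these samples spread, which may be in part technical.

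Apelin, the product of Apln, is a secreted peptide that endothelial tip cells of growing vessels make, and it acts through the G protein-coupled receptor encoded by Aplnr. Apela encodes ELABELA, another peptide ligand of the same receptor, known from early development. Adrenomedullin, from Adm, is a vasodilator peptide of the calcitonin family whose receptor is the protein of Calcrl paired with a receptor activity-modifying protein. Pairing with the product of Ramp2 or Ramp3 gives adrenomedullin receptors, pairing with that of Ramp1 gives the receptor of calcitonin gene-related peptide, and Adm2 encodes intermedin, which acts on these complexes. Both Apln and Adm are known as genes induced by low oxygen.

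The libraries held 15818168 to 17163513 counts, and 17108 genes passed the filter on low counts. The tissue label fits its defining markers, since 5 rod genes summed to 41806 to 45010 CPM (library-scaled counts) in normal and 33653 to 37848 CPM in OIR libraries. Endothelial markers, which bear on genes made by vessels, rose in 12 of 15 cases and fell in 0 (edgeR; also 0 lower by DESeq2 and limma-voom, and 1 lower at an unadjusted p under 0.05), with summed levels of 580.2 to 666 CPM in normal and 923 to 1003 CPM in OIR libraries. Within that list Pecam1 rose 2.19-fold and Cdh5 2.70-fold, whereas the VEGF receptor gene Kdr had 246 ± 10.5 CPM in normal and 247 ± 21.1 CPM in OIR retina (SD, n = 3). Markers of other cells also moved: erythroid genes were higher in 4 of 5 cases, microglial in 5 of 9, mural in 7 of 8 and astrocyte in 3 of 5 (1 lower), while Müller glial genes were lower in 5 of 8 (1 higher). Bipolar and amacrine genes were lower in 5 of 6 cases, rod genes in 3 of 5 and pigment epithelium and choroid genes in 2 of 6 (1 higher). Of 7 ganglion cell genes, 0 were called. Among all genes tested, 11.1% were higher and 8.73% lower by edgeR. The part of these cells in the members' results was not tested. In whole retina, more cells of a type and more RNA per cell cannot be told apart. Sex-linked transcripts marked 2 normal libraries and OIR 2 as male and the others as female. The libraries of a group thus did not all come from 1 animal, though those of the same sex may have.

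The core of the hypoxia response element, the sequence bound by HIF proteins, was looked for in the members' available promoters. Those of Adm and Apln, the members with the largest changes, and of Ramp3, the only other member with a match, are shown. They are the 250 bases before the RefSeq gene start (GRCm38.p6, the build called mm10), 5′ to 3′ on the strand of the gene, with each match to ACGTG or GCGTG on either strand in capitals. CACGTG holds the first of these on both strands. The Adm stretch lies on chromosome 7 from 110627407 to 110627656 (plus strand), that of Apln on chromosome X from 48034854 to 48035103 (minus strand) and that of Ramp3 on chromosome 11 from 6658283 to 6658532 (plus strand).
Adm: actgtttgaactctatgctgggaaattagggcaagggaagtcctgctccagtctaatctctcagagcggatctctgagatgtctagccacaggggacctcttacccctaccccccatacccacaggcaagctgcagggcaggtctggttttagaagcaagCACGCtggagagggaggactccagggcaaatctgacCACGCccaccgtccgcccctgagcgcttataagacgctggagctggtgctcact
Apln: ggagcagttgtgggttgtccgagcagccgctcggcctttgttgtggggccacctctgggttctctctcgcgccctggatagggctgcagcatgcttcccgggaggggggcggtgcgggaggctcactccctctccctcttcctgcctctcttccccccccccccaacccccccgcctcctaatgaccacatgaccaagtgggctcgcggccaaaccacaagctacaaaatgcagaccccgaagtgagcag
Ramp3: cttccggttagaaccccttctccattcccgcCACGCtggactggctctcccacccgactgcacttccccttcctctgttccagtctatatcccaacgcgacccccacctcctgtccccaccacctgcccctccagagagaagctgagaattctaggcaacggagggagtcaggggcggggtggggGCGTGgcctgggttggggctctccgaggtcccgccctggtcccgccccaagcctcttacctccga
The Adm stretch holds 2 matches, both to GCGTG on the opposite strand, which begin 90 and 54 bases before the start. The Ramp3 stretch also holds 2, beginning 219 and 65 bases before the start, and the Apln stretch holds none. Of the 7 members with a promoter in the table, these 2 had a match, beside 38.6% of all 32851 promoters of the same length. A match is a description of letters and not a bound site.

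The peptide genes Apln and Adm were far higher in OIR retina, Aplnr was moderately higher, and Calcrl, Ramp2 and Ramp3 were close to their normal levels. Of the 8 members tested, 3 rose (Apln, Adm and Aplnr), beside 11.1% of all genes tested (19.8% in either direction), by the quasi-likelihood test of edgeR with adjusted p under 0.05. None of the 8 fell in that test, beside 8.73% of all genes, with 0 lower also by DESeq2 and limma-voom and 2 lower (Apela and Ramp1) at an unadjusted p under 0.05. The median log2 fold change of the 8 was 0.24, beside 0.01 for all genes tested. The groups did not overlap, with OIR higher, in 3 of the 8 (18.7% of all genes) and with OIR lower in 1 (18.1%; 36.8% in either direction). The remaining member, Adm2, did not pass the filter.

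**Figure D1:**
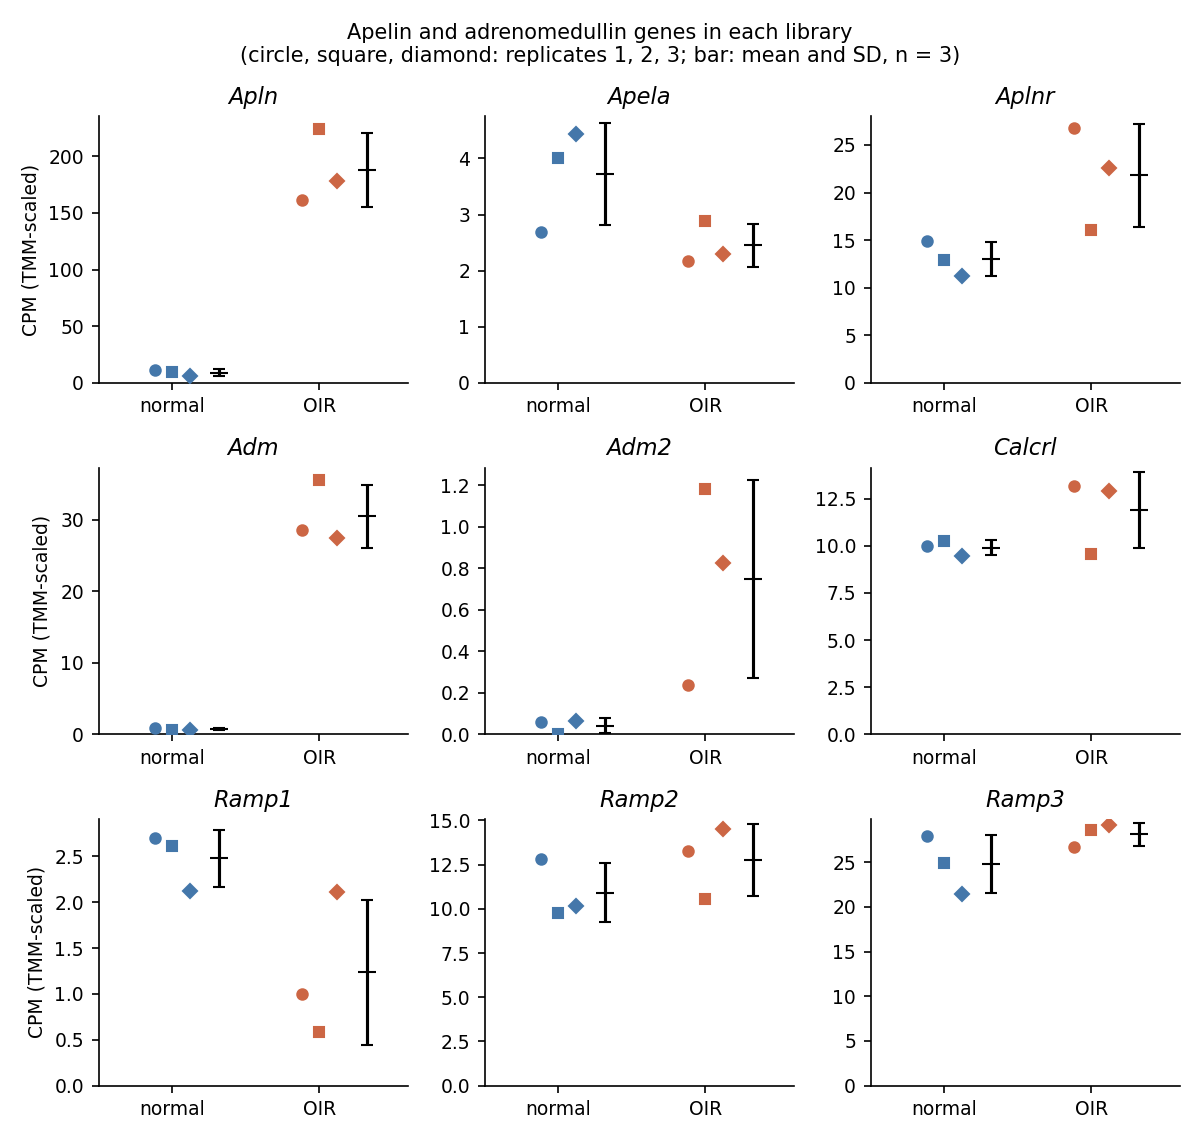
CPM, scaled with TMM factors, of each of the 9 members in the 3 normal (blue) and 3 OIR (orange) libraries, with circles, squares and diamonds for replicates 1, 2 and 3 and bars for the mean and SD. Apln and Adm lie far apart between groups, Adm2 is apart by a small margin at OIR 1, while Calcrl, Ramp2, Ramp3 and Apela overlap.

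Apln (ENSMUSG00000037010, chromosome X, 48025146 to 48034853, minus strand, mm10) had 191, 158 and 92 counts in the normal libraries and 2736, 3803 and 3037 in the OIR libraries. On the CPM scale these were 11.4, 9.61 and 5.92 in normal 1, 2 and 3, and 161, 224 and 178 in OIR 1, 2 and 3. The lowest OIR library was thus well above the highest normal library, and OIR 2 was the highest of all. Mean levels were 8.99 ± 2.82 CPM in normal and 188 ± 32.6 CPM in OIR retina (SD, n = 3). Apln rose 20.8-fold, a log2 fold change of 4.38 with a standard error of 0.21 and an edgeR adjusted p of 6.36e-07. Its log2 fold change ranked 25 from the top among the genes tested.

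Adm (ENSMUSG00000030790, chromosome 7, 110627661 to 110629820, plus strand) went from near the detection limit to a moderate level. Its counts were 14, 10 and 9 in the normal libraries and 484, 602 and 466 in the OIR libraries, or 0.839, 0.608 and 0.579 CPM against 28.5, 35.5 and 27.4 CPM. As for Apln, the groups did not overlap and OIR 2 was the highest library. It rose 44.5-fold, from 0.675 ± 0.142 to 30.5 ± 4.39 CPM (SD, n = 3), a log2 fold change of 5.48 with a standard error of 0.20 and an edgeR adjusted p of 1.82e-07. By log2 fold change it ranked 7 from the top. With 33 normal counts in all, the ratio of summed counts was 44.9 with a 95% exact (Clopper-Pearson) interval of 31.9 to 65.5, which covers counting error only.

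Adm2 (ENSMUSG00000054136, chromosome 15, 89322720 to 89324731, plus strand), the intermedin gene, was barely present in normal retina. It had 1, 0 and 1 counts in normal 1, 2 and 3 and 4, 20 and 14 counts in OIR 1, 2 and 3. Every OIR library was above every normal library, but OIR 1 was much lower than the other two. The ratio of summed counts, 38 against 2, was 18.2 with a 95% counting interval of 4.69 to 155. Adm2 did not pass the filter on low counts. With no filter, its log2 fold change was 3.95 with an edgeR adjusted p of 0.000614, beside 7.56% of genes called higher. For Apln that fit gave an adjusted p of 1.49e-68, against 6.36e-07 with the filter. Adm2 passed the filter in some fits with 1 library left out. Its edgeR adjusted p was then 0.026 without normal 1, 0.0306 without normal 2, 0.0509 without normal 3 and 0.00597 without OIR 1.

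Apela (ENSMUSG00000079042, chromosome 8, 65028417 to 65037336, minus strand), the other ligand gene of the apelin receptor, did not share the rise of Apln. It had 45, 66 and 69 counts in the normal libraries and 37, 49 and 39 in the OIR libraries, or 2.70, 4.01 and 4.44 CPM against 2.18, 2.89 and 2.29 CPM. OIR 2 lay above normal 1, so the groups overlapped. Its log2 fold change of −0.60 (standard error 0.26) did not pass (edgeR adjusted p of 0.137). Of its exon bases, 297 are shared with Gm45886 on the same strand, which had 0 counts.

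The apelin receptor gene Aplnr (ENSMUSG00000044338, chromosome 2, 85136225 to 85139923, plus strand), a single-exon gene, was the receptor gene that rose. It had 14.9, 13.0 and 11.3 CPM in normal 1, 2 and 3 and 26.8, 16.04 and 22.6 CPM in OIR 1, 2 and 3. The groups did not overlap, although OIR 2, the library with the most Apln, was only slightly above normal 1. It rose 1.67-fold, from 13.0 ± 1.8 to 21.8 ± 5.41 CPM (SD, n = 3), a log2 fold change of 0.74 with a standard error of 0.18 and an edgeR adjusted p of 0.0159. Leaving out normal 3 (log2 fold change 0.65, adjusted p of 0.0888) or OIR 1 (0.57, 0.0751) ended the call.

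Calcrl (ENSMUSG00000059588, chromosome 2, 84330626 to 84425411, minus strand), which encodes the receptor through which adrenomedullin signals, was close to its normal level. It had 10.01, 10.3 and 9.45 CPM in the normal libraries and 13.2, 9.55 and 12.9 CPM in the OIR libraries. OIR 2 lay within the normal range and the other two above it. Its log2 fold change of 0.26 (standard error 0.15) did not pass (edgeR adjusted p of 0.26).

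The partner genes Ramp2 and Ramp3, whose products turn the Calcrl protein into adrenomedullin receptors, did not pass either. Ramp2 (ENSMUSG00000001240, chromosome 11, 101246028 to 101259546, plus strand) had 12.8, 9.79 and 10.2 CPM in normal and 13.3, 10.6 and 14.5 CPM in OIR libraries, a log2 fold change of 0.23 with a standard error of 0.16 (edgeR adjusted p of 0.372). Ramp3 (ENSMUSG00000041046, chromosome 11, 6658521 to 6677475, plus strand) had 28.0, 24.9 and 21.5 CPM in normal and 26.7, 28.6 and 29.1 CPM in OIR libraries, a log2 fold change of 0.18 with a standard error of 0.11 (edgeR adjusted p of 0.292). For both genes the groups overlapped. The gene model of Ramp2 runs on into Vps25, the next gene on the same strand, and shares 1103 of its 3301 exon bases with it. Vps25 itself had 36 counts in the 6 libraries together, so reads in the shared exons may be missing from both genes.

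Ramp1 (ENSMUSG00000034353, chromosome 1, 91179822 to 91225196, plus strand), the partner that makes the receptor of calcitonin gene-related peptide, had the lowest log2 fold change of the members tested. It had 45, 43 and 33 counts in the normal libraries and 17, 10 and 36 in the OIR libraries. On the CPM scale these were 2.70, 2.62 and 2.12 against 1.002, 0.590 and 2.12, so OIR 3 was level with normal 3 while OIR 1 and OIR 2 were clearly lower. Its log2 fold change of −1.0 (standard error 0.41) did not pass (edgeR adjusted p of 0.114). Without OIR 3 it was −1.64 and passed (adjusted p of 0.0133), and with no filter on low counts it was −1.0 with an adjusted p of 0.0306, beside 5.7% of genes called lower in that fit.

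**Figure D2:**
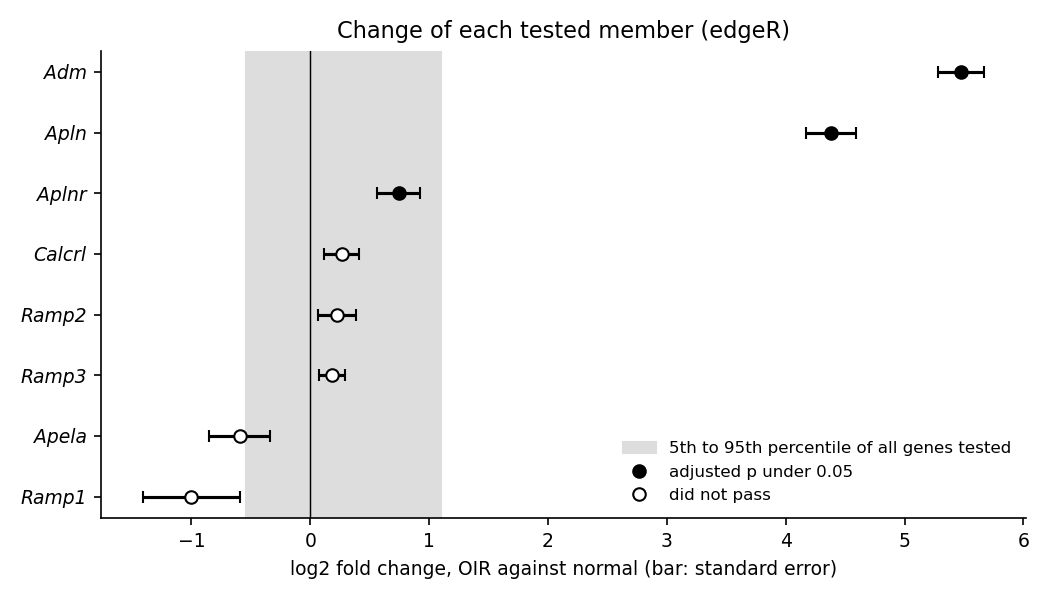
Log2 fold change, OIR against normal, of the 8 tested members with its standard error (edgeR), filled where the adjusted p is under 0.05. The grey band runs from the 5th to the 95th percentile of all genes tested (−0.55 to 1.10), and Adm (5.48) and Apln (4.38) lie far outside it, while Aplnr (0.74) passed the test inside it.

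Compared per length, as CPM per kb of exon not shared with a same-strand gene, the order of the members changed between the groups. In normal retina Ramp3 led with 18.0 ± 2.36 CPM per kb, apart from all others. Apela (5.26 ± 1.28) and Ramp2 (4.97 ± 0.752) came next and overlapped. Then came Aplnr (3.52 ± 0.488) and Apln (2.85 ± 0.894), which overlapped with each other, and Aplnr also overlapped with Apela. Calcrl (2.03 ± 0.0862) overlapped with Apln. Ramp1 (0.820 ± 0.103), Adm (0.417 ± 0.0880) and Adm2 (0.0319 ± 0.0277) followed, each apart from the next (SD, n = 3). With shared exon bases kept in the length, Apela had 3.70, Aplnr 3.52 and Ramp2 3.31 CPM per kb, so their order depends on the length used.

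In OIR retina Apln became the highest member, with 59.7 ± 10.3 CPM per kb. Ramp3 (20.4 ± 0.931) and Adm (18.8 ± 2.71) came next and overlapped. Aplnr (5.90 ± 1.46) and Ramp2 (5.81 ± 0.921) overlapped with each other, and Apela (3.47 ± 0.539) and Calcrl (2.44 ± 0.416) were each apart from their neighbours. At the low end Adm2 (0.575 ± 0.367) and Ramp1 (0.409 ± 0.261) overlapped (SD, n = 3). With shared exon bases kept in the length, Ramp2 had 3.87 CPM per kb in OIR retina, and Apela was level with Calcrl at 2.44.

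**Figure D3:**
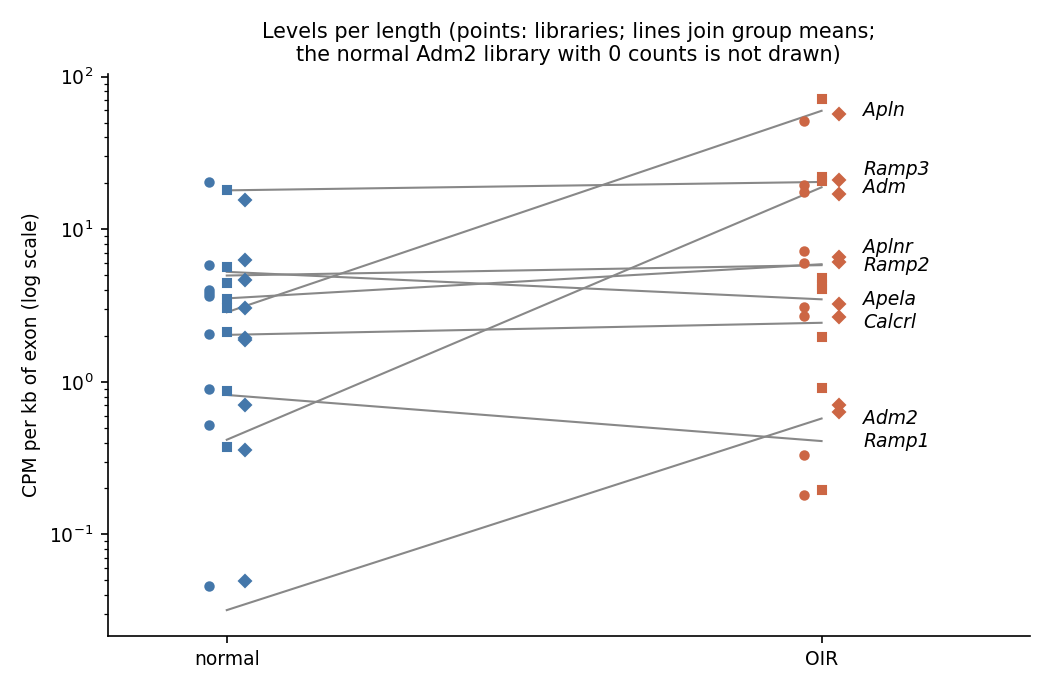
CPM per kb of exon (log scale) of each member in the 3 normal and 3 OIR libraries, with lines joining group means. The lines of Apln, Adm and Adm2 climb steeply and cross those of other members, while Calcrl, Ramp2 and Ramp3 stay near level, Aplnr goes from 3.52 to 5.90 and Ramp1 from 0.820 to 0.409 CPM per kb.

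The balance of peptide to receptor transcripts shifted in both systems. The ratio of Apln to Aplnr, in CPM per kb, was 0.905, 0.871 and 0.618 in normal 1, 2 and 3 and 7.08, 16.4 and 9.27 in OIR 1, 2 and 3. The ratio of Adm to Calcrl was 0.253, 0.178 and 0.185 in the normal and 6.52, 11.2 and 6.39 in the OIR libraries. Each receptor transcript thus went from exceeding its peptide in every normal library to being exceeded in every OIR library. On the log2 scale the differences were 3.70 and 5.26, each with an exact two-sided permutation p of 0.1, the smallest that 3 samples against 3 allow. OIR 2 had the highest ratio in both systems.

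Among the Ramp transcripts the shares of Ramp3 and Ramp2 changed little, while that of Ramp1 was lower in OIR retina. Ramp3 made up 75.6 ± 1.45% of the summed CPM per kb of the 3 Ramp genes in normal and 76.7 ± 3.38% in OIR retina, and Ramp2 20.9 ± 1.65% and 21.8 ± 2.70% (SD, n = 3), with exact two-sided permutation p of 0.8 and 0.6. Ramp1 made up 3.30%, 3.70% and 3.36% in normal 1, 2 and 3 and 1.29%, 0.759% and 2.46% in OIR 1, 2 and 3, with groups that did not overlap (exact permutation p of 0.1).

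**Figure D4:**
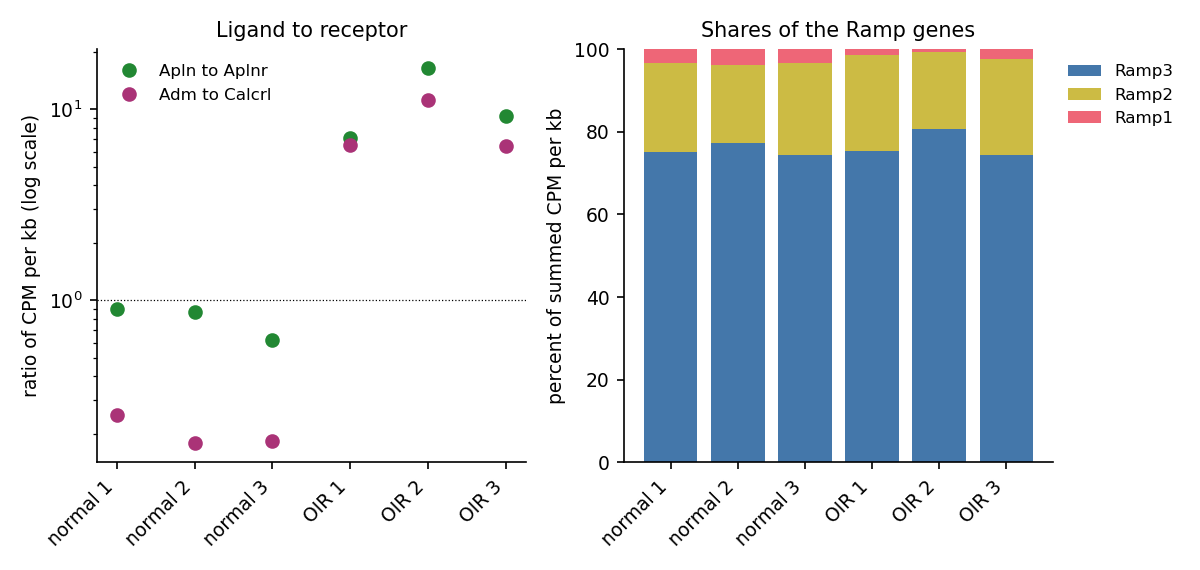
Left, the ratio of Apln to Aplnr and of Adm to Calcrl in each library, in CPM per kb on a log scale, with the dotted line at equal levels; all normal libraries lie below it and all OIR libraries above. Right, the share of Ramp1, Ramp2 and Ramp3 in their summed CPM per kb, where Ramp3 takes the largest share in every library (74.3% to 80.6%).

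Relative to the endothelial markers, which rose, Calcrl, Ramp2 and Ramp3 were lower in OIR retina. The marker sum was higher in every OIR library, so a gene of unchanged CPM also comes out lower by this measure. Of all genes tested, 75% had a log2 fold change of 0.25 or less, so such a fall is not particular to these genes. Calcrl had 1.503, 1.68 and 1.63 CPM per 100 CPM of the summed endothelial markers in normal 1, 2 and 3, and 1.34, 1.03 and 1.29 in OIR 1, 2 and 3. Ramp2 went from 1.93, 1.604 and 1.75 to 1.346, 1.14 and 1.45, and Ramp3 from 4.20, 4.09 and 3.70 to 2.71, 3.10 and 2.91. In all of these every OIR library was below every normal library. The log2 differences were −0.40 for Calcrl, −0.43 for Ramp2 and −0.46 for Ramp3, each with an exact two-sided permutation p of 0.1, the smallest possible.

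Aplnr stayed level with the endothelial markers by this measure, with 2.10 ± 0.148 CPM per 100 in normal and 2.24 ± 0.490 in OIR retina (SD, n = 3; exact permutation p of 0.8). Apln and Adm exceeded them, with log2 differences of 3.77 and 4.86, and Apela and Ramp1 were lower by −1.23 and −1.84, all 4 with groups that did not overlap and an exact permutation p of 0.1. With the mean log2 CPM of the markers in place of their sum, which gives less weight to abundant markers such as Kdr, Aplnr was −0.28, Calcrl −0.75, Ramp2 −0.78 and Ramp3 −0.81. How many cells of each type the libraries held was not measured.

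**Figure D5:**
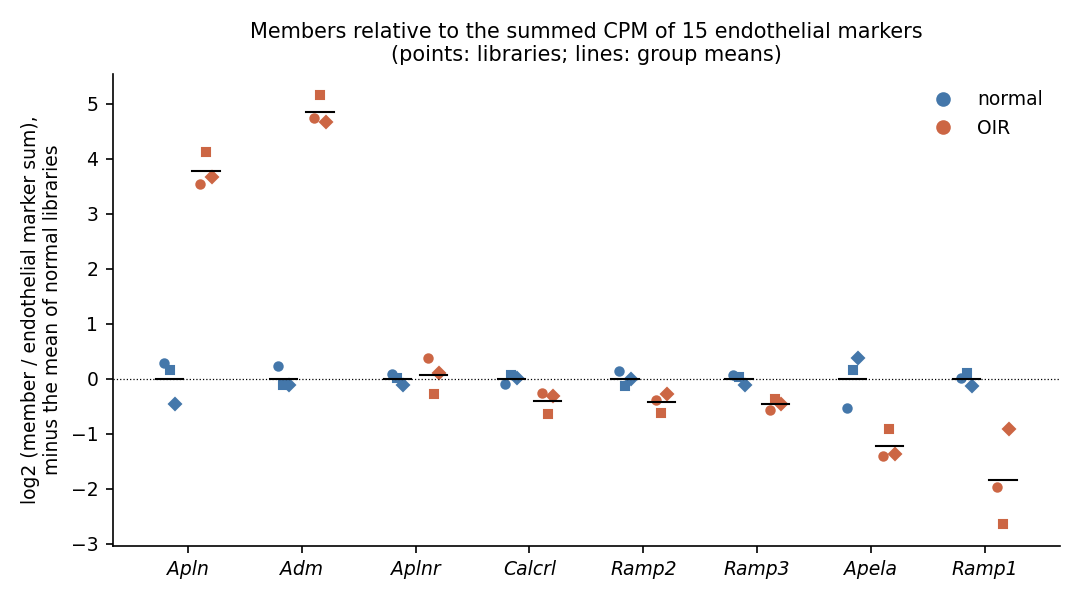
Log2 ratio of each tested member to the summed CPM of 15 endothelial markers, set to 0 at the normal mean, with 1 point per library and lines for group means. Apln and Adm lie 3.77 and 4.86 above 0 in OIR retina, Aplnr near 0 (0.07), and Calcrl, Ramp2 and Ramp3 below it. A gene of unchanged CPM would also lie below 0, because the marker sum rose.

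Genes that process or break down the peptides changed less and in mixed directions. Of 9 tested, 2 rose and 1 fell in edgeR's quasi-likelihood test, beside 11.1% higher and 8.73% lower of all genes tested. Their median log2 fold change was 0.21, beside 0.01 for all genes tested. Prcp, a carboxypeptidase gene, had 13.5, 12.1 and 11.8 CPM in normal 1, 2 and 3 and 19.9, 17.1 and 18.2 CPM in OIR 1, 2 and 3. The groups did not overlap, and Prcp rose from 12.5 ± 0.918 to 18.4 ± 1.42 CPM (SD, n = 3; log2 fold change 0.56, edgeR adjusted p of 0.00784). Furin, the protease that cleaves peptide precursors, had a log2 fold change of 0.21 and did not pass (adjusted p of 0.0922). It passed without normal 1 (0.27, adjusted p of 0.0269).

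Relatives of the calcitonin family were low or did not pass. Of 6 listed genes 3 were tested, and 0 rose or fell by edgeR, DESeq2 or limma-voom, with 2 higher at an unadjusted p under 0.05. Calca, which encodes calcitonin gene-related peptide, had 0.899, 0.547 and 0.450 CPM in normal and 0.766, 2.18 and 1.47 CPM in OIR libraries (log2 fold change 1.204, edgeR adjusted p of 0.094). Ackr3, a scavenging receptor that also takes up adrenomedullin, had a log2 fold change of 0.45 (adjusted p of 0.149), and the receptor component gene Crcp one of −0.02 (adjusted p of 0.888). Untested for low counts was, among others, the calcitonin receptor gene Calcr, with 4 normal and 11 OIR counts.

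Signalling genes downstream of these receptors rose in 5 and fell in 3 of 17 cases, beside 11.1% higher and 8.73% lower of all genes tested, with a median log2 fold change of 0.10. Gnai2, an inhibitory G protein subunit gene of the kind Aplnr couples to, rose 1.51-fold, with 248, 214 and 214 CPM in normal and 326, 344 and 351 CPM in OIR libraries (edgeR adjusted p of 0.000344). Of the other inhibitory subunit genes in the list, Gnai3 rose (log2 fold change 0.28) and Gnai1 fell by 0.39 on the log2 scale (adjusted p of 0.0168), both named after their values were seen. The adenylyl cyclase gene Adcy4 rose 2.49-fold from 2.47 ± 0.643 to 6.18 ± 0.953 CPM and the arrestin gene Arrb1 1.31-fold (SD, n = 3; adjusted p of 0.0031 and 0.00776). Prkacb, a catalytic subunit gene of protein kinase A, fell by 0.30 on the log2 scale (adjusted p of 0.01) and no longer passed without OIR 1 (−0.29, adjusted p of 0.0602). The number that rose was 3 without OIR 2 and 3 without OIR 3, and the number that fell was 1 without normal 3 and 1 without OIR 1.

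Genes listed as part of endothelial responses to apelin or adrenomedullin were called at shares near those of all genes. Of 9 tested, 1 rose and 1 fell by edgeR, beside 11.1% and 8.73% of all genes. Their median log2 fold change was 0.08, and 7 of the 9 had positive values, with 2 higher by DESeq2 and 3 higher at an unadjusted p under 0.05. In whole retina these genes are not a measure of the response of vessels, since which cells made them was not measured. Mef2d, for example, had 618 ± 15.8 CPM in normal retina, against 25.5 ± 3.46 CPM for the endothelial marker Pecam1 (SD, n = 3). The list also gives neither the direction of each response nor whether the gene's own RNA takes part in it. Fabp4, a fatty acid binding protein gene, rose 2.95-fold, with 0.779, 3.41 and 1.8 CPM in normal and 6.13, 6.84 and 4.70 CPM in OIR libraries (edgeR adjusted p of 0.0174). Its call was lost without normal 3 (log2 fold change 1.49, adjusted p of 0.0894), OIR 1 (1.52, 0.0593) or OIR 2 (1.43, 0.0733). Mef2c, a transcription factor gene, fell by 0.33 on the log2 scale (adjusted p of 0.0351), a call lost on leaving out any 1 library but normal 1, with values of −0.36 to −0.24. The shear-responsive transcription factor genes Klf2 and Klf4 had log2 fold changes of 0.54 and 0.61 and did not pass (adjusted p of 0.0685 and 0.0933), and Klf2 passed without normal 1 (0.73, adjusted p of 0.0163).

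Among hypoxia-inducible genes, 13 of 16 rose and 0 fell by edgeR, and likewise by DESeq2 and limma-voom (14 higher and 0 lower at an unadjusted p under 0.05; 11.1% of all genes tested rose), with a median log2 fold change of 0.56. Vegfa, the hypoxia-induced endothelial growth factor, had 127, 152 and 134 CPM in normal and 412, 453 and 417 CPM in OIR libraries, with OIR 2 the highest as for Apln and Adm. Egln3, a prolyl hydroxylase gene of the oxygen-sensing system, had 5.27, 5.17 and 3.41 CPM in normal and 33.2, 44.8 and 41.1 CPM in OIR libraries. The log2 fold changes of Vegfa, Egln3, Bnip3 and Egln1 were 1.64, 3.10, 1.03 and 0.93 (edgeR adjusted p from 7.37e-07 to 1.23e-05). The log2 fold changes of Apln and Adm given above were larger than each of these.

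The genes most like each member over the 6 libraries were found by the root-mean-square difference of centred log2 CPM profiles among 15813 genes. For Apln these were Cebpd (difference 0.25), Ndufa4l2 (0.26) and Matn4 (0.33), and for Adm they were Lad1 (0.38), Ndufa4l2 (0.47) and Apln itself (0.48). Ndufa4l2, a mitochondrial gene known to be induced by hypoxia, was on both lists and went from 5.43 to 118 CPM. For Aplnr they were Gm2061 (0.07), Gm13135 (0.08) and Fkbp9 (0.10), for Calcrl Slc7a5 (0.05), Ccdc189 (0.06) and Igsf6 (0.07), and for Ramp3 Nop53 (0.02), Sema7a (0.03) and Sart1 (0.03). For Ramp2 they were Plekhg5 (0.06), Slc29a1 (0.07) and Selenop (0.07), for Apela Atp8b5 (0.08), Gm44765 (0.09) and Ryr1 (0.10), and for Ramp1 Gm11754 (0.17), 9630028B13Rik (0.22) and Kcne1l (0.23). All profiles share the same 6 libraries and group split, so the likeness is a description. The profiles used a prior count of 2, which shrinks differences at low counts. Matn4 was near 0 in normal retina (0.0399 CPM, against 2.53 CPM in OIR), with a log2 fold change of 5.71 against 4.38 for Apln.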

How the data were processed

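Retinal RNA of 3 normal and 3 OIR samples was sequenced. TRIzol extraction preceded library preparation with a NEBNext Ultra kit, per the labels' protocols. The authors deposited raw counts, 1 value per gene and sample. Per the submitters' processing notes, alignment and counting tools named are HISAT2 2.0.5 and featureCounts 1.5.0-p3 on mm10, next to fastp, CASAVA 1.8 and DESeq2 1.20.0. The sources used here give neither annotation release nor strand setting, so reads of overlapping antisense genes cannot be told apart. The gene lengths the authors listed gave CPM per kb, less the exon bases shared with a same-strand gene in GENCODE vM21, which matched 99.8% of gene IDs. OIR columns were matched by group, day and number, and columns without OIR to the normal titles. Between replicates, chi-square per degree of freedom over genes was at least 7.20, above sampling noise.

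The deposited counts were tested by quasi-likelihood F-test in edgeR 4.0.16 (R 4.3.3) with TMM scaling, filterByExpr (minimum count 10, total 15), no covariate and Benjamini-Hochberg adjustment over 17108 genes at a threshold of 0.05. Dividing a log2 fold change by the root of its F gave its standard error. Ratios per library used exact two-sided permutation tests. The ratio of Adm2 to Calcrl was not computed per library because 1 normal library had 0 Adm2 counts. Alternatives were DESeq2 1.42.0, limma-voom (limma 3.58.1), other scalings, filters, a replicate block, each library left out and a threshold of 0.01. After seeing the data, a sex covariate was added. Scripts were first tested on simulated data. Members and lists were chosen with earlier results of these data known. Named genes were the members, up to 4 genes of each pathway list with the smallest adjusted p (all tested in lists of up to 6), single vessel markers and the 3 genes of at least 1 CPM most like each member. Calcr, Vps25, Gm45886 and the lymphatic markers were named after their values were seen. Promoters came from RefSeq (GRCm38.p6), and 7 of the 9 members matched. Some genes that this rule names are not reported here.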

Additional observations from a re-analysis of the deposited data

How the results depend on the processing

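Apln and Adm passed in all 15 alternatives, with log2 fold changes of 4.16 to 4.59 and 5.34 to 5.66 and an edgeR, DESeq2 or limma-voom adjusted p of at most 2.84e-05. Aplnr kept its direction (0.57 to 0.91, adjusted p 1.75e-05 to 0.0888) and did not pass at a threshold of 0.01 (0.74, adjusted p 0.0159); leaving out 1 library gave 0.57 to 0.91. Ramp1 passed with no filter (−1.0), and leaving out 1 library gave −1.64 to −0.67. Calcrl, Ramp2, Ramp3 and Apela did not pass in any alternative. The members called lower were 1 with no filter and 0 to 1 on leaving out 1 library, and those called higher 2 to 4. Peptide processing genes called higher were 1 at a threshold of 0.01 and 1 to 3 on leaving out 1 library, and those lower 1 to 2. Signalling genes called higher were 3 at that threshold and 3 to 6 without 1 library, and those lower 0 and 1 to 3. Endothelial response genes called higher were 2 with DESeq2, 2 with library totals alone, 2 with no filter, 0 at a threshold of 0.01 and 0 to 2 without 1 library. Those lower were 0 with library totals alone, 0 with the replicate block, 0 at a threshold of 0.01 and 0 to 1 without 1 library. Relative to endothelial markers, the mean log2 CPM of the markers gave −0.28 for Aplnr, 4.51 for Adm, −0.75 for Calcrl, −0.78 for Ramp2 and −0.81 for Ramp3, and leaving out 1 library −0.08 to 0.24, 4.71 to 4.97, −0.47 to −0.29, −0.50 to −0.33 and −0.51 to −0.41. Without division by length, the Ramp1 share fell by 3.65 percentage points, against 1.58 to 2.43 on leaving out 1 library. Crcp was 0.0219 with library totals alone. The cause of these changes was not tested. The replicate numbers share no stated batch. Deviations from the group mean correlated at 0.06, −0.16 and 0.07 between same-numbered libraries, and at −0.18 to 0.098 between differently numbered ones. With the replicate number as a block, the log2 fold changes of Apln, Adm and Aplnr were 4.39, 5.47 and 0.72 (adjusted p of 4.4e-06, 2.23e-06 and 0.0165) and 3 members were higher. Over all genes the block called 1680 higher and 1166 lower, against 1901 and 1493. With sex as a covariate they were 4.43, 5.58 and 0.61 (adjusted p of 5.91e-07, 7.56e-08 and 0.0403). Without normal 3, 769 genes in all were lower, and without OIR 1 or OIR 2, 761 and 860. Depth limits Adm2, Ramp1, Apela and the normal level of Adm.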

Other observations

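Genes used as markers of lymphatic endothelium, a vessel type in which adrenomedullin signalling is well known, moved in both directions in OIR retina. Which retinal cells made these transcripts was not measured, so they do not report on lymphatic vessels here. Of 5 listed genes 4 were tested, with 2 higher and 2 lower in edgeR's quasi-likelihood test, beside 11.1% and 8.73% of all genes tested. The VEGF-C receptor gene Flt4 had 10.3 ± 0.364 CPM in normal and 16.9 ± 2.47 CPM in OIR retina, and Pdpn, the podoplanin gene, 47.0 ± 2.78 and 86.9 ± 7.96 CPM (SD, n = 3), which were rises of 1.64-fold and 1.85-fold. Lyve1, a hyaluronan receptor gene also found in macrophages, was 1.63-fold lower, from 20.3 ± 1.44 to 12.5 ± 1.12 CPM. Prox1, a transcription factor gene that retinal neurons and glia also express, was 1.34-fold lower, from 271 ± 11.5 to 202 ± 9.49 CPM, and Ccl21a was at 0 counts in all libraries.

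Within the OIR group, OIR 2 had the most Apln, Adm and Adm2 and the least Aplnr, Calcrl, Ramp1 and Ramp2, by the CPM values given above. It was also the OIR library from a male and had the lowest endothelial marker sum of the group (923 CPM, against 985 and 1003 CPM). With 3 libraries this pattern was noticed and not tested, and sex, library and these levels cannot be told apart.

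Mural cell markers, which accompany vessels, rose in 7 of 8 cases, and Pdgfrb, a receptor gene of pericytes, went from 27.3 ± 1.78 to 62.0 ± 2.65 CPM (SD, n = 3). Their summed level was 259 to 297 CPM in normal and 663 to 753 CPM in OIR libraries.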
